A study of Mus musculus with 32 samples.

Results

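The neutrophil granule genes are a set of 10 mouse genes chosen by symbol: 5 of primary granules and early granulocyte precursors (Mpo, Elane, Prtn3, Ctsg and Ms4a3) and 5 of secondary granules and later precursors (Ltf, Camp, Ngp, Lcn2 and S100a8). Of these, 8 had a row among the 27728 genes of the count table, 4 primary and 4 secondary, and Prtn3 and S100a8 were not analysed here. All 8 passed the filter on low counts in every fit. The members and the gene lists below were chosen with earlier results of these data known, so shares set beside those of all genes are descriptive. RNA was sequenced from 32 libraries of sorted hematopoietic progenitors, negative for lineage markers and Sca1 and positive for cKit, in 9 groups of a study on U2af1, the gene of a splicing factor that reads the 3′ splice site.

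The 15 fetal libraries came from livers at E14.5, with untreated as the treatment label. Their groups were U2af1(flox/flox) without Cre (flox control, n = 3), Vav1-Cre/U2af1(wt/flox) (heterozygous deletion, n = 3), Vav1-Cre/U2af1(flox/flox) (homozygous deletion, n = 3), Vav1-Cre/U2af1(wt/S34F) (S34F, n = 4) and Vav1-Cre alone (n = 2). Vav1-Cre acts in blood cells in general, not in these progenitors alone. The 17 adult libraries came from bone marrow. All adult mice carried Mx1-Cre, rTA and tgU2AF1(WT), a transgene for wild-type U2AF1. In 3 groups the endogenous gene was U2af1(flox/S34F). Mx1-Cre was switched on in these with pIpC, a double-stranded RNA mimic, and the transgene with doxycycline mixed into chow. The doxycycline content was 1250 ppm in 4 libraries, 2500 ppm in 6 and 10000 ppm in 4. The 3 control libraries were U2af1(wt/wt) and untreated. Genotype, pIpC and doxycycline therefore differ at once between any dosed group and these controls. The labels give no adult age and do not say whether the libraries of a group came from separate animals, so p-values measure only the spread between these samples, which may be technical. U2af1 was not analysed here, so the genotype labels were not checked against it.

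Neutrophils store enzymes and antimicrobial proteins in granules that are made in sequence as the cell matures. Primary (azurophil) granules form in promyelocytes and hold myeloperoxidase and serine proteases, and secondary (specific) granules form later, in myelocytes and metamyelocytes, and hold lactoferrin, cathelicidin and lipocalin. The transcription factors C/EBP-alpha, C/EBP-epsilon, PU.1 and GFI1 act in this sequence, and most cells that are still rich in cKit lie before the secondary granule stage.

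Of the primary members, Mpo encodes myeloperoxidase, Elane neutrophil elastase, Ctsg the protease cathepsin G, and Ms4a3 a membrane protein of granulocyte and monocyte precursors. Among the secondary members, Ltf encodes lactoferrin, Camp the cathelicidin precursor, Ngp neutrophilic granule protein and Lcn2 the siderophore-binding lipocalin NGAL. On GRCm38, Mpo (ENSMUSG00000009350) lies on chromosome 11 at 87793581 to 87804413, plus strand, where Gm11505 overlaps it on the other strand. Since the use of strand in counting was not given in the sources used here, reads of that neighbour cannot be told apart from those of Mpo. The other 7 members overlap no annotated gene. Elane (ENSMUSG00000020125) lies on chromosome 10 at 79886247 to 79888215, plus strand, 3072 bases from Prtn3. Ctsg (ENSMUSG00000040314) lies on chromosome 14 at 56099881 to 56102574, minus strand, and Ms4a3 (ENSMUSG00000024681) on chromosome 19 at 11629496 to 11640851, minus strand. Camp (ENSMUSG00000038357, 109847379 to 109849617, minus strand), Ngp (ENSMUSG00000032484, 110419747 to 110423012, plus strand) and Ltf (ENSMUSG00000032496, 111019271 to 111042767, plus strand) share 1195389 bases of chromosome 9, a stretch with 31 protein-coding genes. Lcn2 (ENSMUSG00000026822) lies on chromosome 2 at 32384633 to 32388252, minus strand.

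The promoters of the 4 secondary members are shown because these genes moved together in the comparisons below, and that of Elane is shown as a primary gene beside them. Each window runs from 250 bases before to 50 bases after the RefSeq start, 5′ to 3′ on the gene's strand, from GRCm38.p6. Capitals mark matches on either strand to a C/EBP core (TTNNGNAA), a PU.1 core (GAGGAA) or a TATA box (TATAAA).
Elane, chr10:79886062-79886361: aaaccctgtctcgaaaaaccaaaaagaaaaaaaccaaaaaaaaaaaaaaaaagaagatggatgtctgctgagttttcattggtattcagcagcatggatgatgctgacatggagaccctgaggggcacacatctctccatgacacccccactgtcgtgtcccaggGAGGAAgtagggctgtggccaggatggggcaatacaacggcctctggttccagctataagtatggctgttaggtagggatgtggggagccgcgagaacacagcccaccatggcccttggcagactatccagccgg
Ltf, chr9:111019042-111019341: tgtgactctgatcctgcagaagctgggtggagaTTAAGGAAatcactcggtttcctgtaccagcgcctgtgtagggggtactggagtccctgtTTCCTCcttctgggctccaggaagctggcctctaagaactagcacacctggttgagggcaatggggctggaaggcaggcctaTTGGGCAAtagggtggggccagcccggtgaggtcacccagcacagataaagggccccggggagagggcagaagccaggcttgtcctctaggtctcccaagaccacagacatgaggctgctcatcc
Camp, chr9:109849407-109849706: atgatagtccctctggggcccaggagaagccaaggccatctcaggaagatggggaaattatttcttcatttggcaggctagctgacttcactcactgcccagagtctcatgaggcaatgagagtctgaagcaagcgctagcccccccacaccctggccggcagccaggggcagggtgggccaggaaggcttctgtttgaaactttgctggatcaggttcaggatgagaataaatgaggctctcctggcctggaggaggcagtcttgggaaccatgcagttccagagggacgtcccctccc
Ngp, chr9:110419558-110419857: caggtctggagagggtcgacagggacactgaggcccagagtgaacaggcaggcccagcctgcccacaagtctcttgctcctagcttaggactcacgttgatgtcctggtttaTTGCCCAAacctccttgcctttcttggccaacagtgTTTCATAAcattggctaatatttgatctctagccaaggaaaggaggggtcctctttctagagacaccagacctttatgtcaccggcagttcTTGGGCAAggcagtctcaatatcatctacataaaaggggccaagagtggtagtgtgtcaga
Lcn2, chr2:32387690-32387989: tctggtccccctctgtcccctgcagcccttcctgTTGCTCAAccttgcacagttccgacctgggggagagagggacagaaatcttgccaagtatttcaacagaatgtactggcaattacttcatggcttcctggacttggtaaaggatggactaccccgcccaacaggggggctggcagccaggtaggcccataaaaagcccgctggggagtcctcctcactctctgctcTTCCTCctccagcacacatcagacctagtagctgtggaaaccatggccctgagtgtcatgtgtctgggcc
All 8 members with a row matched 1 window each. The C/EBP core was found 3 times in the Ngp window, 2 times in those of Ltf and Ms4a3 and 1 time in that of Lcn2, so in 4 of 8 windows, while 40.7% of 32851 RefSeq windows of the same length held it. The PU.1 core was in 6 of 8 windows, those of Mpo, Elane, Ctsg, Ms4a3, Ltf and Lcn2, and in 28.3% of all windows. In the Ms4a3 window a C/EBP match directly follows the PU.1 match. The TATA box letters were matched in the Ctsg window alone among the 8, and in 13.6% of all windows. That match lies on the opposite strand, at position -237 from the start. The Camp window held none of the 3 cores. A match is a description of letters in this window and not a binding site.

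Levels are given as CPM, a gene's count per 1000000 counts of its library, with library sizes scaled by TMM (trimmed mean of M values). Libraries held between 26588099 and 71251200 counts. The 8 members together took 0.995% to 2.12% of all counts in the fetal libraries and 1.87% to 6.75% in the adult libraries. Kit, which encodes the cKit receptor used for the sort, had a mean of 283 to 539 CPM in the 5 fetal groups and 459 to 625 CPM in the 4 adult groups, with the homozygous deletion lowest. Reads of Ly6a, which encodes Sca1, were not analysed here.

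Per kilobase of exon, Mpo was the most abundant member in every group except 10000 ppm. Its mean was 4443 ± 980 CPM per kb (SD, n = 3) in the flox control and 8850 ± 1202 CPM per kb (SD, n = 3) in the adult untreated wild type. Elane and Ctsg followed in that order in 7 of the 9 groups, in S34F Ctsg stood above Elane, and at 10000 ppm Ngp came first with a mean of 7911 ± 7762 CPM per kb (SD, n = 4) against 6814 ± 2050 CPM per kb (SD, n = 4) for Mpo, a difference within their spread. In the flox control the ranges of Elane (1056 ± 377 CPM per kb, SD, n = 3) and Ctsg (684 ± 180 CPM per kb, SD, n = 3) overlapped. Within each of these libraries Elane stood above Ctsg, at 1491 against 891.7, 839.6 against 581.1 and 836.5 against 579.7 CPM per kb in replicates 3, 4 and 5. In the untreated wild type the ranges of Elane (5148 to 6907 CPM per kb) and Ctsg (2237 to 2748 CPM per kb) were apart. Ltf was lowest per kb in all 5 fetal groups, at 0.758 ± 0.297 CPM per kb (SD, n = 4) in S34F and 35.3 ± 10.9 CPM per kb (SD, n = 3) in the homozygous deletion. Between the tissues, the median CPM over the 17 adult libraries was 2.16 times that over the 15 fetal libraries for Mpo, 6.15 for Elane, 4.70 for Ctsg, 3.99 for Ms4a3, 9.99 for Camp, 13.9 for Lcn2, 27.3 for Ltf and 54.7 for Ngp. No test was made of this, since tissue, age and genotype differ at once. The adult and fetal ranges over all groups overlapped for each of the 8 genes. For Mpo, Elane and Ctsg only 1 adult library, replicate 4 at 10000 ppm, lay below the highest fetal one. The flox control and the untreated wild type alone did not overlap for any of the 8, with Mpo up to 19090 and from 26000 CPM. The share of all genes apart in this way was not counted, so it is not known whether the granule genes differ in this from other genes.

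**Figure D1:**
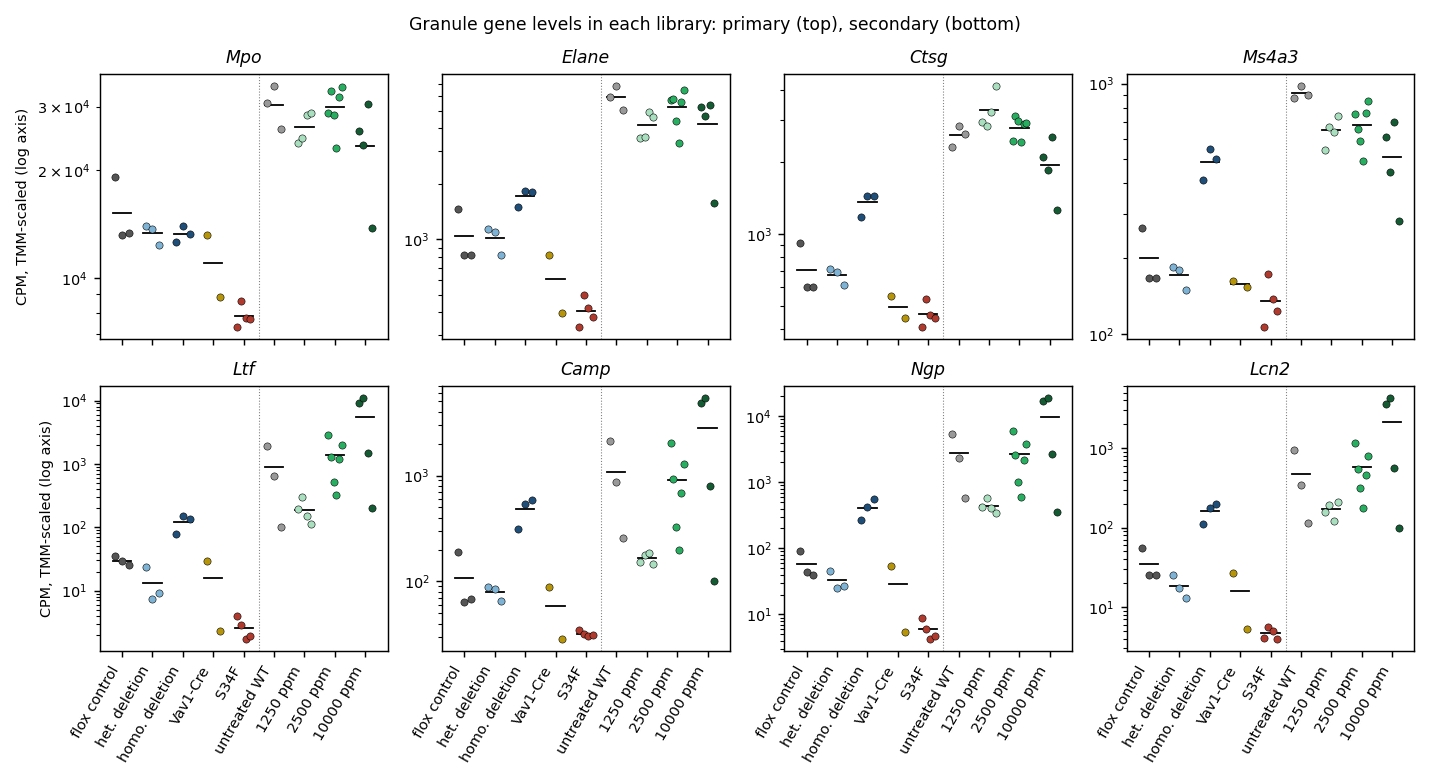
Level of each granule gene in every library, with 1 panel per gene (top row primary, bottom row secondary). The vertical axis is TMM-scaled CPM on a log axis, each point is 1 library, the short lines are group means, and the dotted line separates fetal groups (left) from adult groups (right). The homozygous deletion points lie above those of the flox control for every gene but Mpo, and the secondary genes spread most at 10000 ppm, where Ngp ran from 358 to 18890 CPM.

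Among the primary genes in fetal liver, Ms4a3, Ctsg and Elane rose with the loss of both U2af1 alleles, by 2.41, 1.91 and 1.64 times, while Mpo, the most abundant of them, did not pass the test. Loss of 1 allele left all 4 short of the threshold. These fetal groups were compared within batch A of the labels, in 1 fit of 9 libraries. The test was edgeR's quasi-likelihood F test, p was adjusted by Benjamini-Hochberg over 12678 genes, and a gene was called at an adjusted p under 0.05. Ms4a3 was at 264, 168 and 168 CPM in replicates 3, 4 and 5 of the flox control and at 413, 548 and 501 CPM in replicates 2, 3 and 4 of the homozygous deletion. Each of the latter lay above all 3 controls. The log2 fold change of Ms4a3 was 1.27 ± 0.19 (SE), with an adjusted p of 0.000782 in edgeR. Ctsg was at 921, 600.3 and 599 CPM in the flox control and 1181, 1449 and 1447 CPM in the homozygous deletion, again without overlap, a log2 fold change of 0.93 ± 0.16 (SE, adjusted p 0.00161 in edgeR). Elane was at 1467, 826 and 823 CPM in the flox control, replicate 3 being the high one, and 1491, 1834 and 1810 CPM in the homozygous deletion. Its lowest deletion library exceeded the highest control by little, and the log2 fold change was 0.71 ± 0.23 (SE, adjusted p 0.0390 in edgeR). Without replicate 4 of the flox control that call of Elane was lost (adjusted p 0.121 in edgeR), as it was without replicate 5 of the flox control (0.118), replicate 3 of the homozygous deletion (0.0853) or replicate 4 of the homozygous deletion (0.103). Without the filter on low counts it was lost too, here (adjusted p 0.133 in edgeR) and against the heterozygous deletion (0.119). Mpo was at 19090, 13190 and 13360 CPM in the flox control and 12610, 13960 and 13260 CPM in the homozygous deletion, and the ranges overlapped. Its log2 fold change was -0.21 ± 0.13 (SE, adjusted p 0.211 in edgeR), which does not show that its levels were equal. In bulk RNA, fewer cells of a type and less RNA per cell cannot be told apart.

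Against the flox control, 7 of the 8 granule genes were called higher in the homozygous deletion, 3 of 4 primary and 4 of 4 secondary. Among all tested genes, 18.5% were called higher and 40.9% were called in either direction. The 7 genes also did not overlap between the groups, as was so for 22.8% of all genes in that direction. The median log2 fold change was 0.82 over the 4 primary genes, 2.16 over the 4 secondary genes and -0.02 over all genes.

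In the heterozygous deletion the primary genes overlapped the controls. Mpo was at 13980, 13660 and 12320 CPM in replicates 3, 4 and 5, Elane at 1130, 1090 and 823, Ctsg at 714, 698 and 612 and Ms4a3 at 185, 179.5 and 149 CPM. Replicate 3 was highest and replicate 5 lowest for all 4. Their log2 fold changes against the flox control lay between -0.22 ± 0.18 (SE) for Ms4a3 and -0.02 ± 0.23 (SE) for Elane. With Vav1-Cre present in both groups, the homozygous deletion had more Ms4a3 (1.49 ± 0.19 log2, SE, adjusted p 0.000315 in edgeR), Ctsg (0.99 ± 0.16, adjusted p 0.00107 in edgeR) and Elane (0.73 ± 0.23, adjusted p 0.0335 in edgeR) than the heterozygous deletion. The call of Elane was lost without any 1 of the 3 heterozygous libraries, and without replicate 3 or 4 of the homozygous deletion (adjusted p up to 0.11 in edgeR). Mpo differed by -0.03 ± 0.13 log2 (SE, adjusted p 0.883 in edgeR) between them. This comparison shares the libraries of the homozygous deletion with the one above.

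In the 4 S34F libraries, all of batch B, Mpo was at 7302, 8611, 7736 and 7687 CPM, Elane at 333, 497, 425 and 378, Ctsg at 409, 539, 458 and 447 and Ms4a3 at 106, 173, 137 and 123 CPM. For all 4 primary genes replicate 2 was the highest S34F library and replicate 1 the lowest. The only Vav1-Cre library of batch B (replicate 3) had 8836 CPM of Mpo, 397 of Elane, 445 of Ctsg and 153 of Ms4a3, so no test was run there with 1 control, and a gene was counted where every S34F library differed at least 2-fold from it in 1 direction. Relative to that library, the S34F libraries stood at 0.845 to 0.988 times for Mpo, 0.858 to 1.27 times for Elane, 0.941 to 1.23 times for Ctsg and 0.71 to 1.14 times for Ms4a3. None of the 8 granule genes met the 2-fold rule, which 1.02% of 11823 genes met. The other Vav1-Cre library, replicate 2 of batch A, had 13190 CPM of Mpo, 821 of Elane, 549 of Ctsg and 162 of Ms4a3, all above the batch B control, so a level in S34F cannot be told apart from its batch when set against batch A groups.

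In adult marrow, none of the 4 primary genes passed the test in any dosed group against the untreated wild type, while Ctsg fell with rising dose. The untreated wild type had 30690, 34210 and 26000 CPM of Mpo, 5954, 6796 and 5066 CPM of Elane, 2311, 2839 and 2617 CPM of Ctsg and 875, 977 and 903 CPM of Ms4a3 in replicates 1, 2 and 3. At 1250 ppm (replicates 1, 3, 4 and 5) Mpo was at 23730, 24460, 28360 and 28710 CPM and Elane at 3562, 3593, 4884 and 4615 CPM. The lowest, median and highest of the 6 libraries at 2500 ppm were 22970, 30280 and 34080 CPM for Mpo and 3315, 5613 and 6459 CPM for Elane. At 10000 ppm (replicates 1 to 4) Mpo was at 25620, 23380, 30520 and 13800 CPM and Elane at 5261, 4677, 5348 and 1568 CPM. Replicate 4 at 10000 ppm was the lowest of all 17 adult libraries for each of the 4 primary genes. Ms4a3 was at 544, 669, 641 and 745 CPM at 1250 ppm, at 491, 704 and 848 CPM (lowest, median and highest) at 2500 ppm and at 613, 443, 701 and 281 CPM at 10000 ppm. Every dosed library thus had less Ms4a3 than every untreated one. Its log2 fold changes were -0.48 ± 0.24 (SE, adjusted p 0.18 in edgeR) at 1250 ppm, -0.43 ± 0.22 (adjusted p 0.362) at 2500 ppm and -0.84 ± 0.24 (adjusted p 0.0697) at 10000 ppm. The absence of overlap in that direction was found for 18.4%, 3.75% and 10.3% of all genes in these 3 comparisons, and DESeq2 called Ms4a3 at 10000 ppm (adjusted p 0.0223), as did edgeR without replicate 3 of that group (adjusted p 0.0272).

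Ctsg was at 2951, 2822, 3223 and 4152 CPM at 1250 ppm, at 2420, 2888 and 3104 CPM (lowest, median and highest) at 2500 ppm and at 2095, 1854, 2553 and 1260 CPM at 10000 ppm. All 4 libraries at the highest dose lay below all 4 at the lowest. Between these 2 groups its log2 fold change was -0.77 ± 0.18 (SE, adjusted p 0.00909 in edgeR). That test ran over 13338 genes with all 17 adult libraries in 1 fit, and 13.4% of genes were lower without overlap. Mpo (-0.18 ± 0.19), Elane (0.01 ± 0.30) and Ms4a3 (-0.36 ± 0.22, all log2 ± SE) did not pass there. Over the 14 dosed libraries the slope of Ctsg was -0.24 ± 0.06 log2 units (SE) for each doubling of the dose, adjusted p 0.0228 in edgeR. That slope did not pass without replicate 2 at 10000 ppm (adjusted p 0.078 in edgeR) or replicate 5 at 1250 ppm (0.0618).

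Secondary granule genes were scarce in control fetal progenitors and rose 4.04 to 7.01 times in the homozygous deletion, in all 3 libraries. Ngp was at 92.03, 43.9 and 40.2 CPM in replicates 3, 4 and 5 of the flox control and at 267, 419.7 and 554 CPM in replicates 2, 3 and 4 of the homozygous deletion. The lowest deletion library was well above the highest control, and the log2 fold change was 2.81 ± 0.46 (SE, adjusted p 0.00273 in edgeR). Lcn2 was at 55.4, 24.9 and 25.1 CPM in the flox control and 111, 174 and 196 CPM in the homozygous deletion (2.18 ± 0.42 log2, SE, adjusted p 0.00600 in edgeR). Camp was at 191, 64.4 and 69.1 CPM against 315, 539 and 584 CPM (2.14 ± 0.48 log2, SE, adjusted p 0.0107 in edgeR). Replicate 3 was the high library of the flox control for each of the 4 genes. Ltf was at 34.99, 29.3 and 25.2 CPM in the flox control and 79.6, 152 and 134 CPM in the homozygous deletion, a log2 fold change of 2.02 ± 0.46 (SE, adjusted p 0.0116 in edgeR). Its call was lost without replicate 4 (adjusted p 0.0519 in edgeR) or replicate 5 (0.053) of the flox control. The summed CPM of the 4 secondary genes was 0.0107 to 0.0172 of the summed CPM of the 4 primary genes in the flox control and 0.0492 to 0.0862 of it in the homozygous deletion.

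With 1 allele lost, the mean of each secondary gene was below that of the flox control, and none was called. For Camp this rests on replicate 3 of the flox control. Its median in the heterozygous deletion was 1.225 times that in the flox control. None of the 8 granule genes passed in the heterozygous deletion against the flox control, and only 0.0316% of all genes did, 4 in number in edgeR, with 1102 at an unadjusted p under 0.05 and 98 called by DESeq2. Of the members, Ltf alone had an unadjusted p under 0.05 and DESeq2 called 0. Ltf was at 23.5, 7.37 and 9.21 CPM in the heterozygous deletion, all 3 below the lowest control at 25.2 CPM, with a log2 fold change of -1.17 ± 0.46 (SE, adjusted p 0.542 in edgeR). That pattern of no overlap was found for 7.49% of all genes. Ngp was at 45.7, 25.5 and 27.2 CPM, Lcn2 at 25.1, 17.3 and 12.8 CPM and Camp at 89.4, 84.6 and 65.2 CPM, each overlapping the controls. Against the heterozygous deletion, the homozygous deletion had higher Ngp by 3.65 ± 0.47 log2 (SE, adjusted p 0.000942 in edgeR), Ltf by 3.18 ± 0.48 (adjusted p 0.00188), Lcn2 by 3.11 ± 0.44 (adjusted p 0.00138) and Camp by 2.57 ± 0.48 (adjusted p 0.00502). In that comparison 7 of the 8 members were called higher, against 19.8% of all genes, and the same 7 did not overlap between the groups, as was found for 23.9% of genes in that direction.

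**Figure D2:**
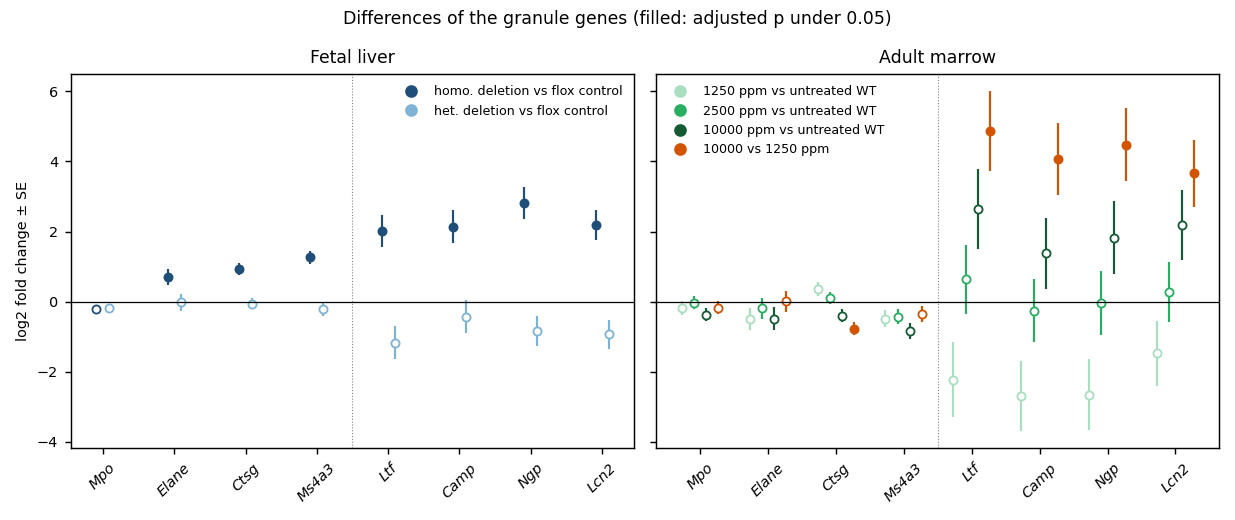
Log2 fold change of each granule gene with its SE, in fetal liver (left panel) and adult marrow (right panel), with primary genes left of the dotted line and secondary genes right of it. Each colour is 1 comparison and a filled point has an adjusted p under 0.05 in edgeR. The homozygous deletion is filled for 7 of 8 genes, and the 10000 against 1250 ppm comparison is filled for Ctsg, below 0, and for the 4 secondary genes, between 3.66 and 4.87.

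Several other transcripts moved beside the granule genes in the fetal liver. Fetal liver hepatocytes were represented by 10 marker genes such as Alb (albumin), whose summed level was 112 to 639 CPM in the flox control (9 of the 10 fell in the homozygous deletion), 55.7 to 132 CPM in the heterozygous deletion and 16.7 to 40.6 CPM in the homozygous deletion. In adult marrow the same 10 genes summed to 15.3 to 46.8 CPM, with Alb, Ttr, Fgb and Fga at 0 in every adult group. The homozygous deletion lay within that range. Within the flox control, replicate 3, the library highest in all 8 granule genes, had the lowest hepatocyte sum. With the mean log2 CPM of these markers as a covariate, none of the 8 granule genes was called against the flox control. Ltf stood at 2.12 log2, near its value without the covariate, and still missed the threshold (adjusted p 0.316 in edgeR). Lower values than without it were found for Ngp (1.59, adjusted p 0.321 in edgeR), Lcn2 (1.02), Ms4a3 (0.55), Camp (0.38), Ctsg (0.22), Elane (-0.12, adjusted p 0.888 in edgeR) and Mpo (-0.72, adjusted p 0.0532 in edgeR). This mean was lower in all 3 homozygous deletion libraries (-0.65 to 1.2) than in the other 6 (1.7 to 5.2), so the groups did not overlap in it. In the homozygous against the heterozygous deletion, the same covariate left 6 of the 8 members called, Elane being the one lost (0.29, adjusted p 0.426 in edgeR), and Ngp stood at 2.92 (adjusted p 0.0170 in edgeR).

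Kit fell from 539 ± 47.6 CPM (SD, n = 3) in the flox control to 283 ± 47.1 CPM (SD, n = 3) in the homozygous deletion (-0.95 log2, adjusted p 5.44e-05 in edgeR), and Cd34, another marker of progenitors, fell by 0.71 log2 (adjusted p 0.00348 in edgeR). Of 6 measured markers of mature neutrophils, Ly6g rose by 2.85 ± 0.57 log2 (SE, adjusted p 0.00223 in edgeR) and the other 5 did not pass. The summed level of the 6 was 177 to 200.2 CPM in the homozygous deletion and 168 to 223 CPM in the flox control, and the ranges overlapped. Such a sum gives the most weight to the most abundant marker, so it need not follow a scarce one. Eosinophil markers (4 genes) summed to 1413 to 1978 CPM in the homozygous deletion against 365 to 1135 CPM in the flox control, mast cell and basophil markers (5 genes) to 614 to 711 against 338 to 401 CPM, and monocyte and macrophage markers (8 genes) to 199 to 262 against 547 to 747 CPM. Gene by gene, 2 of the 4 eosinophil and 3 of the 5 mast cell and basophil markers were called higher. Of the 8 monocyte and macrophage markers 6 fell and 1 rose. All tested markers of B cells (4 genes, median -5.15 log2), dendritic cells (3 genes, -2.35) and megakaryocytes (4 genes, -1.40) fell. Of 5 erythroid markers 1 was called, as lower, and so was 1 of 2 tested markers of T and NK cells. Of all genes 18.5% were called higher and 40.9% in either direction. The part of these cell types in the granule gene levels was not tested.

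Other granule genes were read from lists of their own. Of 18 tested genes of further primary granule proteins and their processing, 10 rose and 3 fell in the homozygous deletion relative to flox controls, with a median log2 fold change of 0.46. Of all genes 18.5% were called higher and 40.9% in either direction. Serpinb1a, an inhibitor of neutrophil serine proteases, rose by 1.14 ± 0.15 log2 (SE), Tmed3, a cargo protein of the secretory pathway, by 1.19 ± 0.15 log2 and Calr, the chaperone calreticulin, by 0.62 ± 0.09 log2 (adjusted p 0.00027, 0.000282 and 0.000343 in edgeR). Of 22 tested genes of further secondary and tertiary granule proteins, 10 rose and 1 fell, with a median of 0.79, to be read against the same shares. Lrg1, a secreted glycoprotein, rose by 2.74 ± 0.41 log2 (SE) and B4galt1, a galactosyltransferase, by 0.38 ± 0.06 log2, while Slc11a1, a metal transporter also found in macrophages, fell by 2.05 log2 (adjusted p 0.000432, 0.000707 and 0.000254 in edgeR). The gelatinase Mmp9 (1.36 ± 0.58 log2, adjusted p 0.0908 in edgeR) and the collagenase Mmp8 (0.50 ± 0.30, adjusted p 0.202 in edgeR) did not pass, and are named because they led the adult comparison. Against the heterozygous deletion, 11 of the 18 further primary genes rose (19.8% of all genes did) and 3 fell, led by Serpinb1a (1.13 ± 0.15 log2, SE), Calr (0.58 ± 0.09) and the granule membrane protein Cd63 (1.04 ± 0.16). Of the 22 further secondary and tertiary genes 19 rose and 1 fell, led by Lrg1 (3.32 ± 0.43 log2, SE), B4galt1 (0.45 ± 0.06) and the stefin Stfa2l1 (3.06 ± 0.36). In the heterozygous deletion against the flox control none of the 18 or the 22 was called.

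Among 18 measured regulators of granule genes, 6 rose and 6 fell with loss of both alleles, relative to flox controls, where 18.5% of all genes rose and 40.9% were called in either direction. The fallers with the smallest adjusted p belong to the monocyte branch: Csf1r, the receptor for M-CSF, fell by 3.21 log2 (adjusted p 1.17e-08 in edgeR), Irf8 by 2.06 log2 (adjusted p 7.13e-06 in edgeR) and Klf4 by 2.36 log2 (adjusted p 2.11e-05 in edgeR). Of the genes that rose, Gfi1, a repressor needed for neutrophil formation, increased by 1.34 ± 0.18 log2 (SE, adjusted p 0.000501 in edgeR), Cebpa by 0.54 ± 0.12 log2 (adjusted p 0.00439 in edgeR) and Spi1, which encodes PU.1, by 0.37 ± 0.11 log2 (adjusted p 0.0208 in edgeR). These 3 were named after their values were seen. Against the heterozygous deletion 6 regulators rose (19.8% of all genes did) and 8 fell, with Csf1r (-2.87 ± 0.09 log2, SE), Irf8 (-2.11 ± 0.14) and Zeb2 (-1.27 ± 0.11), a factor of monocyte and dendritic cell formation, at the smallest adjusted p. Cebpe was not analysed here.

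In S34F the secondary genes were near the lower end of the range measured. Ngp was at 8.88, 6.05, 4.26 and 4.76 CPM, Ltf at 3.96, 2.85, 1.73 and 1.91 CPM, Lcn2 at 4.02, 5.64, 4.98 and 3.95 CPM and Camp at 35.1, 32.01, 30.5 and 31.5 CPM in replicates 1 to 4. The Vav1-Cre library of the same batch had 5.39 CPM of Ngp, 2.31 of Ltf, 5.24 of Lcn2 and 28.7 of Camp, inside the range of the S34F libraries except for Camp, which stood at 1.08 to 1.25 times the control in S34F. The Vav1-Cre library of batch A had 53.5 CPM of Ngp, 29.1 of Ltf, 26.4 of Lcn2 and 88.5 of Camp. Set against that library, all 4 secondary genes would pass the 2-fold rule as lower in S34F, and 653 genes in place of 121 would pass, with the batch differing at the same time.

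In adult marrow the secondary granule transcripts rose with dose and spread widely within groups. At 1250 ppm they were low and even, with 427, 572, 406 and 338 CPM of Ngp, 194, 301, 149.5 and 111 CPM of Ltf, 154, 177, 185 and 147 CPM of Camp and 155, 192, 122 and 207 CPM of Lcn2 in replicates 1, 3, 4 and 5. At 10000 ppm, replicates 1 to 4 had 16720, 18890, 2704 and 358 CPM of Ngp, 9188, 11000, 1487 and 205 CPM of Ltf, 4832, 5400, 795 and 101 CPM of Camp and 3563, 4286, 567 and 98.3 CPM of Lcn2. Replicates 1 and 2 were thus the highest of all 17 adult libraries for each of the 4 genes, replicate 3 was above every 1250 ppm library, and replicate 4 lay among or below them. The highest library exceeded the lowest of its group 52.8 times for Ngp, 53.8 times for Ltf, 53.3 times for Camp and 43.6 times for Lcn2. In contrast the 4 primary genes summed to 16910 to 39120 CPM in these libraries, 2.31 times apart.

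The 10000 and 1250 ppm groups share genotype and pIpC and differ in the doxycycline dose. The level of the transgene was not analysed here, so its part and that of doxycycline itself cannot be told apart. Ltf was higher at 10000 ppm by 4.87 ± 1.14 log2 (SE, adjusted p 0.0112 in edgeR), Ngp by 4.48 ± 1.05 (adjusted p 0.0113), Camp by 4.07 ± 1.03 (adjusted p 0.0156) and Lcn2 by 3.66 ± 0.95 (adjusted p 0.0176). With Ctsg lower, 5 of the 8 members were called, where 18.1% of all genes were called, 7.48% higher and 10.6% lower. The median over the 4 secondary genes was 4.28 and that over all genes 0.02. The ranges of all 4 overlapped because of replicate 4 at 10000 ppm. Leaving out replicates 1 and 2 at 10000 ppm together, a choice made after seeing the data, left none of the 8 members called: Ngp then stood at 1.84 (adjusted p 0.215 in edgeR), Ltf at 2.19 (0.183), Camp at 1.46 (0.327), Lcn2 at 0.995 (0.464) and Ctsg at -0.77 (0.0595). Lcn2 also lost its call without replicate 2 at 10000 ppm (adjusted p 0.053 in edgeR) or replicate 4 at 1250 ppm (0.0512) or without the filter on low counts (0.0543), and Camp without replicate 5 at 1250 ppm (0.0512).

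At 2500 ppm the lowest, median and highest of 6 libraries were 602, 2397 and 5902 CPM for Ngp, 319.7, 1240 and 2914 CPM for Ltf, 196, 810.1 and 2016 CPM for Camp and 175, 501 and 1161 CPM for Lcn2. For Ngp, Ltf and Camp all 6 libraries stood above all 4 at 1250 ppm, while Lcn2 overlapped. Such a pattern was found for 3.22% of all genes, and this pair of doses was not tested. Over the 14 dosed libraries, the level rose for each doubling of the dose by 1.47 ± 0.34 log2 (SE) for Ltf, 1.36 ± 0.33 for Ngp, 1.23 ± 0.33 for Camp and 1.17 ± 0.27 for Lcn2 (adjusted p 0.0241, 0.0263, 0.0330 and 0.0234 in edgeR). With Ctsg, 5 of 8 members had a called slope, against 10.7% of all genes, 5.35% higher and 5.32% lower. The 4 secondary slopes rest on single libraries: leaving out replicate 1 or 2 at 10000 ppm, or any 1 of the 4 replicates at 1250 ppm, ended all 4 calls, as did dropping the filter on low counts, and the slopes then ranged from 0.97 to 1.45.

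Against the untreated wild type, no member passed in any of the 3 dose groups with edgeR. The members with an unadjusted p under 0.05 were Camp and Ngp at 1250 ppm, none at 2500 ppm, and Ctsg, Ms4a3, Ltf and Lcn2 at 10000 ppm. Among all 13338 tested genes, 4059, 2016 and 2963 had such a p in edgeR at these 3 doses. The untreated libraries themselves differed widely, with 5321, 2354 and 587 CPM of Ngp, 1914, 639.5 and 101 CPM of Ltf, 2122, 871 and 257 CPM of Camp and 959, 347 and 116 CPM of Lcn2 in replicates 1, 2 and 3, with replicate 1 highest and replicate 3 lowest for each gene. At 1250 ppm all 4 libraries lay below the 3 untreated ones for Camp (-2.70 ± 1.01 log2, SE, adjusted p 0.0863 in edgeR) and Ngp (-2.65 ± 1.01, adjusted p 0.0909 in edgeR), and the ranges overlapped for Ltf (-2.22 ± 1.06, adjusted p 0.169) and Lcn2 (-1.47 ± 0.92, adjusted p 0.296). In this comparison 11.6% of genes were called. DESeq2 called Camp (adjusted p 0.0119) and Ngp (adjusted p 0.0134) there. At 2500 ppm the log2 fold changes were between -0.26 ± 0.90 (SE) for Camp and 0.63 ± 0.996 for Ltf, with 0.427% of genes called. At 10000 ppm they were 2.64 ± 1.15 (SE) for Ltf, 2.18 ± 0.996 for Lcn2, 1.83 ± 1.04 for Ngp and 1.38 ± 1.02 for Camp (adjusted p 0.191, 0.211, 0.315 and 0.447 in edgeR), with 1.24% of genes called and overlap for all 4. DESeq2 called Ltf at this dose (adjusted p 0.0388). Without replicates 1 and 2 at 10000 ppm the 4 values turned negative, from -0.07 for Ltf to -1.28 for Camp. These comparisons with the untreated wild type share its 3 libraries.

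In 3 of the 4 adult groups the secondary genes shared their highest and lowest libraries. In the untreated wild type, at 2500 ppm and at 10000 ppm the same library was highest for all 4 secondary genes and the same library lowest for all 4: replicates 1 and 3 of the untreated wild type, 1 and 4 at 2500 ppm, and 2 and 4 at 10000 ppm. At 1250 ppm they did not: replicate 5 was lowest for Ngp, Ltf and Camp and highest for Lcn2, and Camp peaked in replicate 4. The primary genes peaked elsewhere, in replicate 2 of the untreated wild type and replicate 3 at 10000 ppm for all 4, and in replicate 6 at 2500 ppm for 3 of 4. The ratio of the summed secondary to the summed primary CPM was 0.0307 to 0.259 in the untreated wild type, 0.021 to 0.0394 at 1250 ppm and 0.0443 to 0.319 at 2500 ppm. At 10000 ppm it was 1.02 in replicate 1, 1.30 in replicate 2, 0.142 in replicate 3 and 0.0451 in replicate 4. Replicates 1 and 2 were the only adult libraries in which the 4 secondary genes had more counts than the 4 primary ones.

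**Figure D3:**
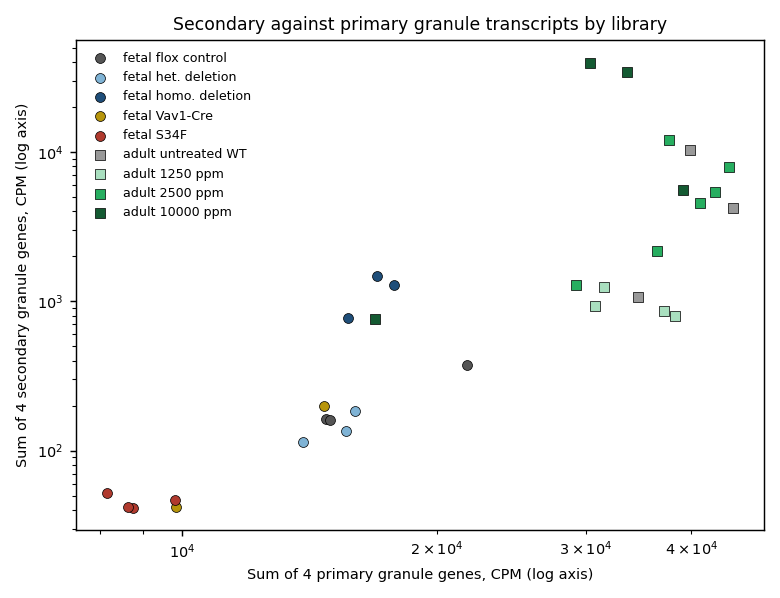
Summed CPM of the 4 secondary granule genes (vertical, log axis) against that of the 4 primary granule genes (horizontal, log axis), with 1 point per library, circles for fetal and squares for adult libraries, coloured by group. The homozygous deletion points sit above the other fetal points. Their primary sums lie within the range of the other batch A libraries, while those of the batch B libraries are lower. The 2 libraries that lie highest are at 10000 ppm, at 34300 and 39580 CPM.

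From 1250 to 10000 ppm, 5 of 6 markers of mature neutrophils rose along with the secondary genes, where 7.48% of all genes rose. Mmp8 and Retnlg, among these markers, are also counted with the further secondary and tertiary granule genes. Ly6g, a surface protein of neutrophils, was at 60.6, 93.5, 8.43 and 1.32 CPM in replicates 1 to 4 at 10000 ppm, following the order of the secondary genes, and at 0.357 to 2.35 CPM at 1250 ppm. It was 5.39 ± 1.24 log2 higher (SE, adjusted p 0.0104 in edgeR). Mmp8, the neutrophil collagenase, was at 77.1, 284, 20.4 and 4.94 CPM in these replicates. Cxcr2, Il1b and Retnlg also rose and Csf3r did not pass. Among the untreated wild type and the lower doses, the markers differed in their order of means. Ly6g, Cxcr2 and Csf3r had their lowest mean at 1250 ppm, as the secondary genes did. Mmp8, Retnlg and Il1b had theirs in the untreated wild type. Untreated wild-type libraries held 0.485 to 3.63 CPM of Mmp8, those at 1250 ppm 2.14 to 9.47 CPM and those at 2500 ppm 5.48 to 34.3 CPM, while Ngp averaged 2754, 435.5 and 2687 CPM in these groups. The 6 summed to 606, 1342, 314 and 178 CPM in replicates 1 to 4 at 10000 ppm, against 264 to 308 CPM at 1250 ppm, 237 to 418 CPM at 2500 ppm and 288 to 339 CPM in the untreated wild type, and none was at 0 in all libraries of a group. Csf3r, also listed among the regulators, made up most of this sum in every adult library but replicate 2 at 10000 ppm. It held 246 of 264 CPM in replicate 1 at 1250 ppm, so the sum mainly follows Csf3r. Other markers also moved from 1250 to 10000 ppm, to be read against the same 7.48%. Of 4 eosinophil genes 2 rose, their sum going from 75.3 to 162 CPM to 28.9 to 1291 CPM. Of 4 megakaryocyte genes 3 rose. The sort was for lineage-negative cells positive for cKit, and Kit itself was higher at 10000 than at 1250 ppm (0.44 ± 0.14 log2, adjusted p 0.0444 in edgeR). The part of mature cells in the secondary granule levels was not tested.

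**Figure D4:**
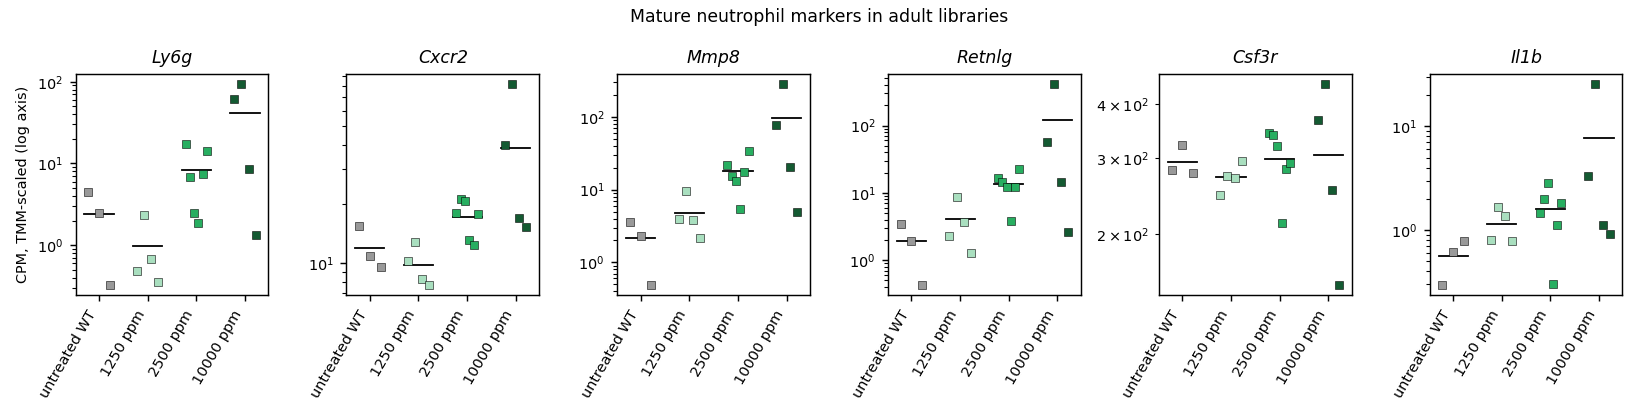
Level of 6 mature neutrophil markers in the adult libraries, with 1 panel per gene, TMM-scaled CPM on a log axis, 1 square per library and short lines for group means. Ly6g, Mmp8, Retnlg and Cxcr2 are highest in the same 2 libraries at 10000 ppm, with Ly6g at 60.6 and 93.5 CPM.

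Among further secondary and tertiary granule genes, 10 of 23 tested rose and none fell at 10000 against 1250 ppm, with a median of 1.88, where 7.48% of all genes rose. The gelatinase Mmp9 rose by 5.10 ± 1.13 log2 (SE, adjusted p 0.00882 in edgeR), Mmp8 by 4.32 ± 1.01 (adjusted p 0.0112 in edgeR) and Retnlg, a resistin-like secreted protein, by 4.92 ± 1.22 (adjusted p 0.0142 in edgeR). The slope with dose was called higher for 8 of the 23, and for 5.35% of all genes, with Mmp9 (1.66 ± 0.31 log2 per doubling, SE), Retnlg (1.64 ± 0.33) and Mmp8 (1.40 ± 0.29) at the smallest adjusted p. Against the untreated wild type, where 1.24% of all genes were called, 3 of 23 rose at 10000 ppm: Mmp9 (6.63 ± 1.40 log2, adjusted p 0.0385 in edgeR), Mmp8 (5.51 ± 1.23, adjusted p 0.0447 in edgeR) and the formyl peptide receptor Fpr1 (5.56 ± 1.27, adjusted p 0.0478 in edgeR). At 1250 ppm Slc11a1 alone was called, higher by 3.67 ± 1.11 log2 (SE, adjusted p 0.0446 in edgeR), which is a smaller share than the 11.6% of all genes called there, and at 2500 ppm none of the 23 was.

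Of 18 further primary granule genes tested in adults, none rose and 4 fell from 1250 to 10000 ppm, where 10.6% of all genes fell. Calr fell by 0.68 log2 (adjusted p 0.00290 in edgeR), Gusb, the lysosomal beta-glucuronidase, by 0.49 log2 (adjusted p 0.00290 in edgeR) and Ctsc, the protease that activates the granule serine proteases, by 0.47 log2 (adjusted p 0.00557 in edgeR). The same 3 had a called slope with dose, of -0.21 ± 0.04, -0.14 ± 0.03 and -0.14 ± 0.03 log2 per doubling (SE), where 5.32% of all genes had a called negative slope. Calr (0.41 ± 0.11 log2, SE, adjusted p 0.0319 in edgeR) and Gusb (0.30 ± 0.09, adjusted p 0.0336 in edgeR) were the 2 of the 18 called at 1250 ppm against the untreated wild type, both higher, a share near the 11.6% of all genes called there. None of the 18 was called at 2500 or 10000 ppm against the untreated wild type. Of the 18 regulators, Cebpa was the 1 called gene at 10000 against 1250 ppm, where it fell by 0.34 log2 (adjusted p 0.0221 in edgeR), a smaller share than the 18.1% of all genes called. Its slope with dose was -0.11 ± 0.03 log2 (SE, adjusted p 0.0359 in edgeR).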

How the data were processed

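RNA of 32 sorted progenitor libraries was sequenced after ribosomal RNA depletion, and the authors deposited 1 table of raw counts per Ensembl gene, with reads aligned to GRCm38 by HISAT2 2.1.0, per the design text. The counting tool, annotation release, strand setting and gene filter were not given in the sources used here. All 32 columns were mapped by name to the labels' groups. The members and gene lists were chosen with earlier results of these data known. Symbols, positions and exon lengths came from GENCODE M21, which named 27668 of 27728 genes.

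The counts were tested as deposited with edgeR 4.0.16 (filterByExpr, TMM, robust quasi-likelihood F test; R 4.3.3), with Benjamini-Hochberg adjustment over all genes tested and calls at an adjusted p under 0.05. A fit used the 9 fetal libraries of batch A, since the submitters warn of batch effects, the 17 adult libraries, or the 14 dosed ones (slope on log2 dose). SE is the log2 fold change divided by the root of F. S34F was compared with 1 library, without a test, over genes that averaged 10 or more counts. CPM values are scaled over all 32 libraries. All members were named, and from each further list the called genes with the 3 smallest adjusted p. Alternatives were DESeq2 1.42.0, other scaling and filters, a replicate block, a hepatocyte covariate, and leaving out each library. Libraries of 1 group differed beyond counting noise in all 46 pairs (chi-square per degree of freedom 3.64 to 463). Replicate numbers are not stated to pair samples. Correlations of same-numbered deviations were -0.161 to 0.2, and no comparison had every pair over 0.1, which does not exclude pairing. A further marker of mature neutrophils is not reported here. Promoters came from the RefSeq table of GRCm38.p6.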

Additional observations from a re-analysis of the deposited data

How the results depend on the processing

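With DESeq2 the genes called became 98 for the heterozygous deletion (4 in edgeR), 2456 (members 2) for 1250 ppm, 557 for 2500 ppm and 1055 (members 2) for 10000 ppm against the untreated wild type (1542, 57 and 166 in edgeR, members 0), and 2248 for the dose slope (1372). Without the low-count filter they became 23, 688, 31 and 90 in these 4 comparisons and 1402 for 10000 against 1250 ppm (2418), 1 member kept a called slope, and 6 members in place of 7 were called in the homozygous deletion, both against the flox control and against the heterozygous deletion. Leaving out genes above 1% of counts removes Mpo, Ltf and Ngp and left 3 members called both at 10000 against 1250 ppm and for the slope (5 each). With the replicate block, where numbers are not known to pair samples, the genes called were 0 for the heterozygous deletion, 462 for 1250 ppm and 120 for 2500 ppm against the untreated wild type, 1178 (members 1) for 10000 against 1250 ppm and 45 (members 0) for the slope. For 2500 ppm against the untreated wild type each of the 3 shared numbers correlated best with its own. The same held for the 2 shared numbers in the homozygous against the heterozygous deletion, a hint from the data only.

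With the hepatocyte covariate, 1288 genes (5185 without it) and 0 members were called for the homozygous deletion against the flox control, Elane stood at -0.117, and 0 genes were called for the heterozygous deletion. Without replicates 1 and 2 at 10000 ppm together, 8 genes were called against the untreated wild type, 761 (members 0) against 1250 ppm and 163 (members 0) for the slope. For S34F, a mean count of at least 50 left 24 genes past 2-fold (121), and the batch A control gave 653 (members 4).

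Leaving out 1 library at a time gave 3989 to 5595 genes (members 5 to 7) for the homozygous deletion against the flox control, 0 to 265 for the heterozygous deletion (members 0), 4056 to 5180 (members 6 to 7) for homozygous against heterozygous, 79 to 1440, 0 to 160 and 0 to 825 for 1250, 2500 and 10000 ppm against the untreated wild type (members 0, 0 and 0 to 1), 1121 to 2808 (members 4 to 5) for 10000 against 1250 ppm, and 86 to 2230 (members 0 to 5) for the slope. The value of 86 is without replicate 2 at 10000 ppm. TMM and DESeq2-type factors differed by -0.049 to 0.093 log2.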
